A study of Mus musculus with 60 samples.

Results

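The 10 genes Hspa1a, Hspa1b, Hspa8, Hsph1, Dnajb1, Dnaja1, Hsp90aa1, Hspb1, Hspd1 and Ahsa2, which encode heat shock chaperones and their partners, were followed in liver and inguinal fat of obese mice. They were picked by gene symbol, and all 10 were found among the 54343 gene rows of each of the 4 tables of FPKM, a level that counts sequenced fragments relative to transcript length and library size. The choice was made with earlier results from these same libraries in view, among them the levels of heat shock genes in liver of Glp1rWnt1-/- mice, so the values of that comparison are given as a description. The libraries are poly(A) RNA-seq of 2 tissues, liver and inguinal white adipose tissue, from mice with diet-induced obesity. Each tissue was profiled in 2 mouse lines, and each line had 3 groups of 5 libraries that the labels call biological replicates. In the Glp1r line the groups were Glp1rfl/fl mice given vehicle, Glp1rfl/fl mice given mGIPR-Ab/P1, and Glp1rWnt1-/- mice given vehicle. In the Gipr line they were Giprfl/fl mice given vehicle, Giprfl/fl mice given mGIPR-Ab/P1, and GiprSyn-/- mice given vehicle. mGIPR-Ab/P1 is a peptide-antibody conjugate, an antibody against the GIP receptor joined to a peptide that acts on the GLP-1 receptor. The knockouts carry a driver name, Wnt1 or Syn, and the labels used here do not describe the cells in which either driver acts. No knockout mice given the conjugate were analysed here, and the sex and age of the animals are not given in the labels. All 12 groups share the obese background, and the floxed vehicle group of a table served as the control for both of its comparisons, so these comparisons are not independent of each other.

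Heat shock proteins bind unfolded or partly folded proteins. The inducible HSP70 proteins, encoded by Hspa1a and Hspa1b, and the constitutive HSC70, encoded by Hspa8, work in cycles of ATP hydrolysis that J-domain proteins such as those of Dnajb1 and Dnaja1 start and that the HSP110 protein of Hsph1 resets as a nucleotide exchange factor. HSP90 (Hsp90aa1) takes over client proteins, and activators of its ATPase of the Ahsa family help it. Hspb1 encodes the small heat shock protein HSP27, which holds unfolded proteins without using ATP, and Hspd1 encodes the mitochondrial chaperonin HSP60. Heat, oxidants and other damage to proteins activate heat shock factor 1 (HSF1), which binds arrays of inverted short GAA units, called heat shock elements, in the promoters of many of these genes. In liver, HSP70 transcripts also change over the day with body temperature and feeding, and the cold-inducible RNA-binding protein Cirbp moves the other way with temperature.

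Hspa1a and Hspa1b are neighbours on chromosome 17 with nearly the same coding sequence, which bears on every value printed for them. Their longest open reading frames, of 1926 and 1929 bases in GENCODE M21, are 99.4% identical. Reads within these frames can rarely be assigned to one gene with certainty. The whole transcripts, of 2967 and 2803 bases, are 85.3% identical, so most differences lie outside the reading frames. Other members also share sequence or territory: Dnaja1 overlaps Smu1 on the other strand, Hspd1 overlaps Hspe1, Ahsa2 overlaps Usp34 and Hspa1a overlaps Gm20481, and the strand setting of the authors' counting is not given in the sources used here. Small nucleolar RNA genes lie within Hspa8. The 250 bases before the starts of Hspa1a and Hspa1b (RefSeq, GRCm38.p6, minus strand, chr17:34972157-34972406 for Hspa1a and chr17:34959239-34959488 for Hspa1b) differ at 3 positions, C44T, T47C and T249G, where positions are counted from 1 at the 5′ end and the Hspa1a base is given first. They are shown to let the near identity be seen, and the capitals mark a pair of inverted GAA units, GAANNTTC, that begins 104 bases before the start in both.
Hspa1a: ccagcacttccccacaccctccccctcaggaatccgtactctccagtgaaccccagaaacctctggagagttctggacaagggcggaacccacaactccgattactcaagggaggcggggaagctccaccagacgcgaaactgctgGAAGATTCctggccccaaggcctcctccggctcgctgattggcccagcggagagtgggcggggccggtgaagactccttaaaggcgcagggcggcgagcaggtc
Hspa1b: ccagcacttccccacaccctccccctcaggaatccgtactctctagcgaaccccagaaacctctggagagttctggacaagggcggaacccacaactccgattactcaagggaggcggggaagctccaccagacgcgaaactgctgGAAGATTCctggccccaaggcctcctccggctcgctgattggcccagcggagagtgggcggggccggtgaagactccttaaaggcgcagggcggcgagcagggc

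A stricter search took 3 units in a row, GAANNTTCNNGAA or TTCNNGAANNTTC, which together cover both strands. RefSeq promoter windows of 300 bases, from 250 before to 50 after a start, were matched by symbol for 8 of the 10 genes (all but Hspa8 and Hsp90aa1), in 13 windows. The 3-unit form was present in windows of 2 genes, Hsph1 and Hspd1, against 179 of 27025 genes counted the same way over any of their windows (0.662%), and 198 of all 32851 single windows (0.603%). Windows of 6 of the 8 genes held at least a pair (GAANNTTC or TTCNNGAA), as did those of 16.97% of all genes. Such a match is a string of letters and shows no binding. The stretches of Hspd1 (250 bases before a start, chr1:55087933-55088182, minus strand) and Hsph1 (30 bases, chr5:149636280-149636309, minus strand, beginning shortly after a start) are given with the 3-unit form in capitals. In Hspd1, overlapping copies begin 144 bases before the start, and in Hsph1 the match begins 15 bases after it.
Hspd1: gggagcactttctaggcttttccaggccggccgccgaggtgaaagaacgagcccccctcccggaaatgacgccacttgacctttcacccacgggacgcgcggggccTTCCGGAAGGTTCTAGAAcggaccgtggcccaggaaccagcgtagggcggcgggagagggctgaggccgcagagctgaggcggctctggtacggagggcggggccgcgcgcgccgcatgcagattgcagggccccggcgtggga
Hsph1: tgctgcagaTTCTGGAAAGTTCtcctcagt

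The depth of each library, estimated from the low values of genes with 1 transcript, was 30.04 to 64.2 M fragments, with M for mega. Of the targeted receptor genes, Glp1r was at most 0.0762 FPKM in any Glp1r-line library and Gipr at most 0.0149 in any Gipr-line liver library, too low to check the knockout labels. In fat, Gipr was at 5.02 to 7.46 FPKM in Giprfl/fl mice given vehicle and 2.57 to 5.37 in GiprSyn-/- mice, and these ranges overlapped. Tissue labels were checked with marker scores, the mean log2(FPKM + 1) of a list: the hepatocyte score (Alb, Apoa1, Ttr, Serpina1c) was 12.6 to 13.4 in the 30 liver libraries and 0.501 to 6.09 in the 30 fat libraries, and the adipocyte score (Adipoq, Plin1, Lep, Cidec) was 9.16 to 10.7 in fat and 0.379 to 1.71 in liver. Some libraries held transcripts of other tissues. The B cell score (6 genes, Cd79a among them, none at 0 in any library) was above 5 in 3 fat libraries of each line and 0.107 to 1.14 in liver. Skeletal muscle scores reached 6.85 in fat and 4.90 in Gipr-line liver, and acinar pancreas scores ran from 0.602 to 9.85 in Gipr-line liver. In the Gipr line, 5 libraries carried numbers from a separate, higher series, 3 in liver and 2 in fat. What these differences contribute to the chaperone values was not tested beyond the refits given beside the results. In whole tissue, fewer cells of a type and less RNA per cell cannot be told apart.

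FPKM is per length, so levels can be ranked between genes, and Hspa8 ranked first and Hspa1a last in all 4 vehicle groups. In vehicle-treated Glp1rfl/fl liver the median of the 5 libraries was 465 FPKM for Hspa8, 164 for Hspd1, 68.1 for Dnaja1, 64.5 for Hsp90aa1 and 35.4 for Hspb1. Ahsa2 (13.2), Hsph1 (11.95) and Dnajb1 (6.28) were well below these, and Hspa1b (2.63) and Hspa1a (0.351) came last. The ranges of the neighbours Dnaja1 and Hsp90aa1 overlapped, as did those of Ahsa2 and Hsph1, while the other neighbours in this order did not overlap. Giprfl/fl liver had the same order and the same overlapping neighbours, with medians from 323 FPKM for Hspa8 to 0.0645 for Hspa1a. In vehicle-treated Glp1rfl/fl fat, Hspa8 was again first (552 FPKM, the median of 5) and clear of the rest. Hspd1 (116), Hsp90aa1 (88.8), Hspb1 (85.2) and Dnaja1 (49.9) followed, each overlapping its neighbour. Hsph1 (14.1), Ahsa2 (11.8) and Dnajb1 (10.3) came next, of which Ahsa2 and Dnajb1 overlapped, and Hspa1b (1.96) and Hspa1a (1.18) were last without overlapping each other. In Giprfl/fl fat the first 5 kept that order, Hsph1 (10.9) came just after Ahsa2 (13.03) and Dnajb1 (11.2), and Hspa1b and Hspa1a overlapped. The tables are set side by side here without a test.

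Hspa1a and Hspa1b were split differently in the 2 tissues. Hspa1a was under 1 FPKM in all 30 liver libraries (0.0240 to 0.801) and at 0.287 to 5.51 FPKM in fat. It made up 3.92% to 14.2% of the sum of both genes in Glp1r-line liver and 3.48% to 13.4% in Gipr-line liver, against 32.5% to 44.9% and 29.7% to 51.7% in the fat of these lines. With coding sequences this alike, the share depends in part on how the authors' estimation divided the reads. A row of the summed values, an addition made after the data were seen, was not called in any comparison in which it could be tested.

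**Figure D1:**
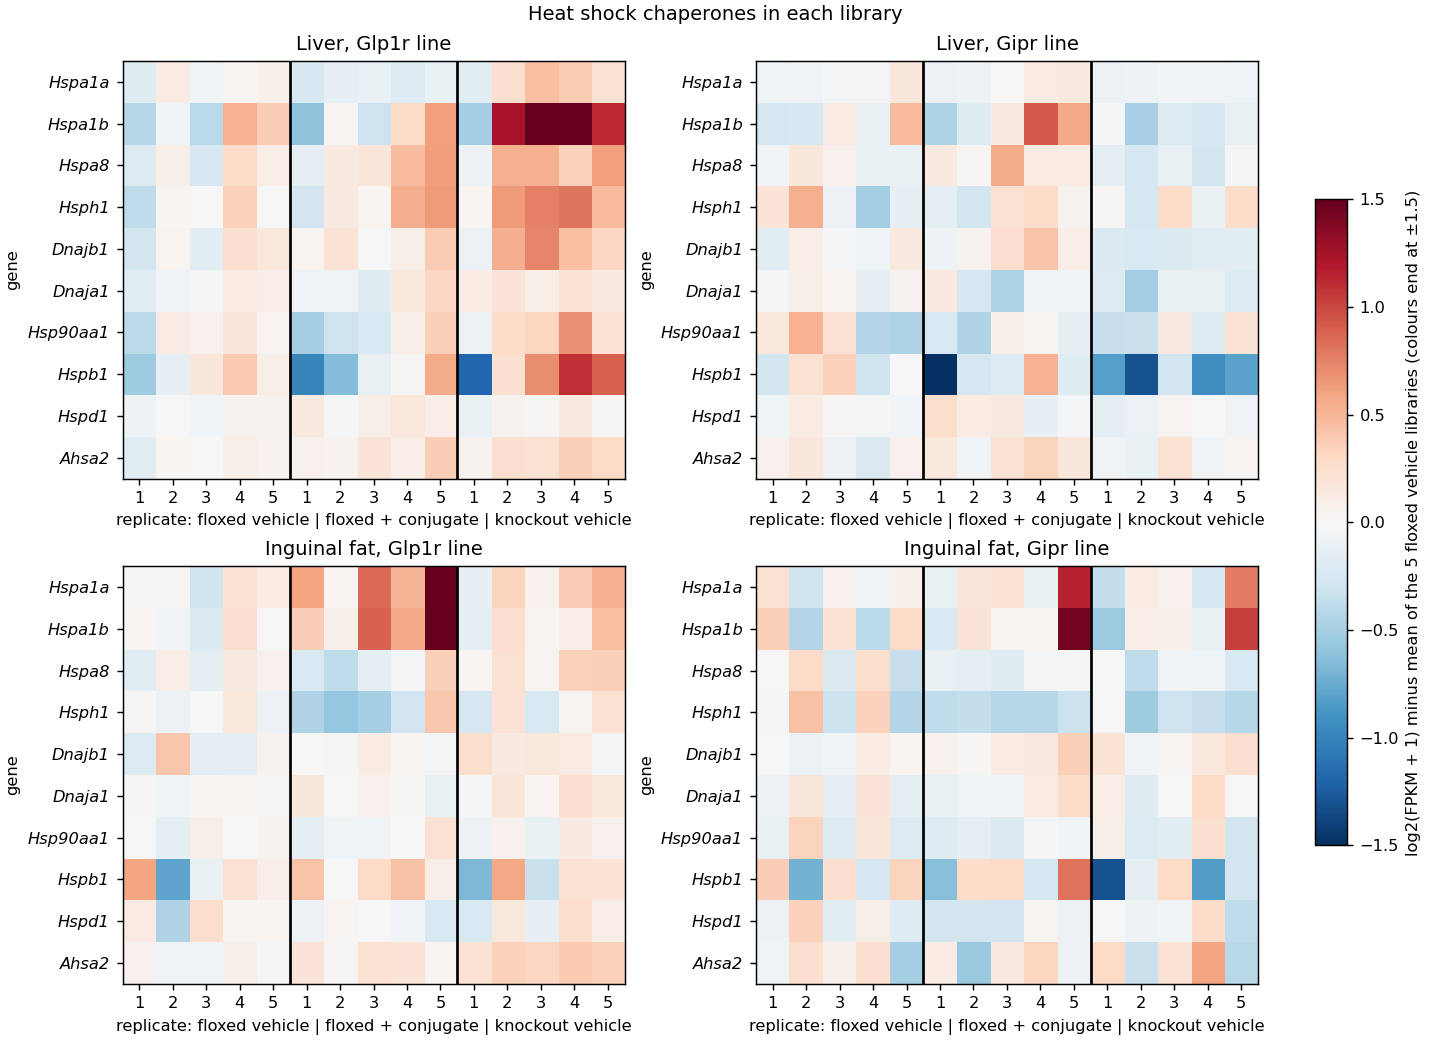
Each cell is one gene in one library, coloured by log2(FPKM + 1) minus the mean of that table's 5 floxed vehicle libraries, with red above and blue below that mean, and the columns of each panel are the replicates of the 3 groups. Knockout replicates 2 to 5 of Glp1r-line liver are red for all 10 genes, and single libraries stand out for Hspa1a and Hspa1b in both fat panels.

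Liver of Glp1rWnt1-/- mice had higher mean levels of all 10 chaperones than liver of Glp1rfl/fl mice, both given vehicle, and this is the pattern through which these genes came to attention. Hspa1b, inducible HSP70, was at 1.79, 2.63, 1.84, 4.39 and 3.87 FPKM in vehicle replicates 1 to 5. In knockout replicates 1 to 5 it was at 1.63, 7.84, 10.3, 10.5 and 7.16 FPKM. Knockout replicate 1 lay below every vehicle library, and the other 4 lay above every one of them. The difference was 1.01 ± 0.36 (log2(FPKM + 1), estimate ± SE, 5 against 5 libraries), and 1.39 without knockout replicate 1.

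Hsph1, the HSP110 exchange factor, gave 8.91, 12.2, 11.95, 15.4 and 11.9 FPKM with vehicle and 12.2, 19.02, 20.8, 21.6 and 16.9 FPKM in the knockout, a difference of 0.54 ± 0.18. Dnajb1, a J-domain partner of HSP70, gave 4.85, 6.28, 5.34, 7.39 and 6.91 FPKM with vehicle and 5.68, 9.36, 10.7, 8.69 and 7.82 FPKM in the knockout (0.39 ± 0.14). In both genes knockout replicate 1 sat among the vehicle libraries. Hspa8, constitutive HSC70, was at 380.5, 465, 367, 529 and 468 FPKM with vehicle and at 414, 631, 631, 555 and 672 FPKM in the knockout (0.39 ± 0.16). Hsp90aa1, the inducible HSP90, was at 46.6, 66.5, 64.5, 69.9 and 63.5 FPKM with vehicle and 58.1, 75.02, 77.1, 99.96 and 71.2 FPKM in the knockout (0.28 ± 0.16). In Hspa8 and Hsp90aa1, too, the groups overlapped through knockout replicate 1 alone, and the other 4 knockout libraries lay above every vehicle library. Hspa1a stayed under 1 FPKM throughout, at 0.159 to 0.436 FPKM with vehicle and 0.171 to 0.801 in the knockout. The other 4 differed by 0.23 ± 0.071 (Ahsa2), 0.35 ± 0.37 (Hspb1), 0.15 ± 0.081 (Dnaja1) and 0.03 ± 0.052 (Hspd1).

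The median difference of the 10 genes was 0.31, beside -0.04 for all 10858 genes tested, and 10 of 10 were above 0, where 33% of all genes were. No chaperone was called by limma (Benjamini-Hochberg adjusted p under 0.05 over all genes tested) and neither was any other gene (0% of 10858), while 5 of the 9 chaperones tested and 1048 of all genes had an unadjusted p under 0.05. Nothing is read from these counts, since the genes were chosen with this contrast in view. The median was 0.44 without knockout replicate 1 and 0.19 without knockout replicate 4. Cirbp, which is induced by cold, was at 11.7, 8.55, 10.8, 7.90 and 8.95 FPKM with vehicle and 8.89, 6.14, 6.60, 5.92 and 6.64 FPKM in the knockout (-0.43 ± 0.12, adjusted p = 0.247 by limma). Rbm3, the other cold-inducible gene followed, differed by -0.39 ± 0.17 (adjusted p = 0.470 by limma), and Hsf1 itself by 0.07 ± 0.072. None of the 31 other HSP90 and HSP70 machinery genes, 3 small heat shock proteins, 16 chaperonins and mitochondrial chaperones or 17 endoplasmic reticulum chaperones tested was called.

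In Glp1rfl/fl liver no chaperone was called after the conjugate. By limma, 0 of 9 chaperones tested were called, beside 10.4% of all 10858 genes. This count is too small to set them apart from that share. An unadjusted p under 0.05 was found for 1 of the 9 (Ahsa2) and for 2931 of all genes. Hspa1b was at 1.47, 2.83, 2.04, 3.59 and 4.76 FPKM after the conjugate, a difference of 0.0039 ± 0.36 from vehicle. Hspa8 was at 397, 480.4, 495, 601 and 677 FPKM (0.25 ± 0.16) and Hsph1 at 9.54, 13.2, 12.1, 17.8 and 19.01 FPKM (0.21 ± 0.18). In each of these genes conjugate replicate 1 was the lowest and replicate 5 the highest of its group, and the groups overlapped. Dnajb1 was at 6.23, 7.14, 6.10, 6.55 and 8.23 FPKM (0.14 ± 0.14) and Hsp90aa1 at 43.3, 49.4, 52.4, 64.8 and 79.4 FPKM (-0.12 ± 0.16). Ahsa2, an HSP90 activator relative, differed by 0.16 ± 0.071 (adjusted p = 0.168 by limma), and Dnaja1, Hspb1 and Hspd1 by -0.24 to 0.09. Hspa1a was at 0.112 to 0.232 FPKM, too low for a test. The median of the 10 was 0.06, beside 0.01 for all genes, and 7 of 10 lay above 0, as did 53.2% of all genes. The estimated depth was 31.9 to 35.6 M fragments after the conjugate and 47.6 to 54.7 M fragments with vehicle, so depth and treatment cannot be told apart here, and with depth as a term the median of the 10 was -0.52 and 0 genes were called.

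Of the 31 other HSP90 and HSP70 machinery genes, 2 rose and 1 fell with the conjugate, where 10.4% of all genes were called. Hspa13, a microsomal HSP70 relative, fell by 0.43 on the log2 scale (SE 0.083, adjusted p = 0.00834 by limma), a call kept in 19 of 21 alternative analyses. The HSP90 co-chaperone Cdc37 and the ubiquitin ligase Stub1 rose by 0.13 ± 0.039 and 0.17 ± 0.042, with calls kept in 4 of 21 and 14 of 21 alternatives. Among 16 chaperonins and mitochondrial chaperones, Tcp1 alone passed and rose by 0.21 ± 0.05. Of 17 endoplasmic reticulum chaperones and their regulators, 2 lay above 0, beside 53.2% of all genes. The transcription factor gene Xbp1 rose by 0.36 ± 0.10 (call kept in 8 of 21 alternatives) and Manf fell by 0.64 on the log2 scale (kept in 10 of 21). Hspa5, the reticulum's HSP70, differed by -0.51 ± 0.17 (adjusted p = 0.0612 by limma). Hsf4 was called higher by 0.27 ± 0.077, a call kept in 6 of 20 alternatives. With depth as a term every one of these 7 calls was lost (adjusted p = 0.664 to 0.933 by limma), when Xbp1 differed by 0.11, Tcp1 by 0.10 and Hsf4 by -0.12. No small heat shock protein of 3 tested was called.

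**Figure D2:**
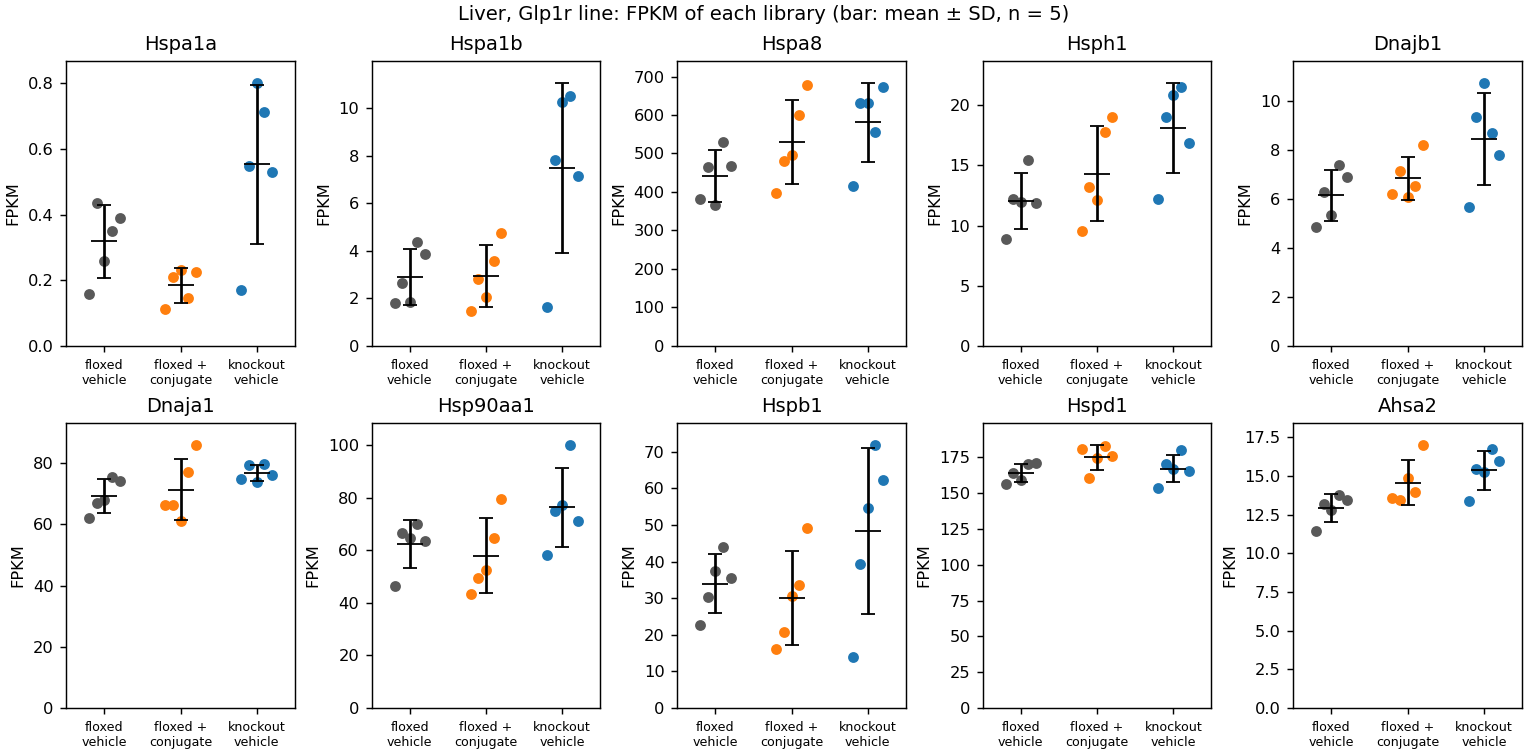
FPKM of each gene in Glp1r-line liver, one point per library with replicates 1 to 5 from left to right, grouped as floxed vehicle (grey), floxed with conjugate (orange) and knockout vehicle (blue), with bars for mean ± SD (n = 5). The leftmost blue point, knockout replicate 1, lies at vehicle level or below for most genes while the other 4 lie higher.

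Within groups of Glp1r-line liver the chaperones varied together. After each group's mean was subtracted, all 36 gene pairs had a positive Pearson r over the 15 libraries, with a median of 0.733 and a range of 0.4596 to 0.925. Hsph1 and Hspa1b followed the mean of the other genes most closely (r = 0.918 and 0.910), and Hspd1, the mitochondrial chaperonin, least (r = 0.623). Over a regular sample of 2172 genes of that table, pairs had a median r of 0.121, and 62.8% were positive. The chaperone median was 0.284 in Gipr-line liver (21 of 28 pairs positive), 0.105 in Glp1r-line fat (28 of 45) and 0.387 in Gipr-line fat (24 of 36). Sampled pairs of all genes there had medians of 0.135 (61.9% positive), 0.081 (54.4%) and 0.006 (50.4%). Some chaperones had a negative r with the mean of the others. They were Dnajb1 in Glp1r-line fat (r = -0.52), Hspb1 (-0.38) and, more weakly, Hspa1b (-0.19) in Gipr-line fat, and Hspd1 in Gipr-line liver, which was near 0 (-0.05). The points share libraries and depth, and the chaperones were chosen with results of these libraries in view, Glp1rWnt1-/- liver among them. These values are therefore descriptions. Per library, the median of the 10 genes relative to the vehicle mean ran from -0.24 in vehicle replicate 1 to 0.49 in knockout replicate 3, and all 10 genes were above that mean in vehicle replicate 4 and in knockout replicates 2 to 5.

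In Gipr-line liver no chaperone was called either, and most lay slightly below vehicle in the knockout, as did most of all genes tested. By limma, 0 of 8 chaperones tested were called after the conjugate, beside 4.34% of 11201 genes. At an unadjusted p under 0.05 were 0 chaperones and 2254 of all genes. In GiprSyn-/- liver 0 of 8 were called, beside 10.4% of genes. There 2 (Dnajb1 and Hspb1) had an unadjusted p under 0.05, as did 2700 of all genes. The median of the 10 was 0.05 with the conjugate and -0.13 in the knockout, where the medians of all genes were -0.03 and -0.11. Above 0 lay 7 of 10 with the conjugate (43.6% of all genes) and 2 of 10 in the knockout (26.2% of all genes). The knockouts of the lines differ in gene and driver and were compared only within their own tables.

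Hspb1, encoding HSP27, had the lowest estimate in the GiprSyn-/- liver. Its values were 13.6, 19.8, 21.4, 13.4 and 16.8 FPKM with vehicle, 4.31, 13.9, 14.5, 24.4 and 14.6 with the conjugate and 9.03, 6.14, 13.5, 8.28 and 9.19 in the knockout. Knockout replicate 3 alone reached the vehicle range, and conjugate replicate 1 was the lowest of the 15. The knockout difference was -0.83 ± 0.32 (adjusted p = 0.116 by limma), and it was called with array weights (adjusted p = 0.0231 by limma) and when only these 2 groups were fitted (adjusted p = 0.0151 by limma). With the immediate early score as a term it was -0.26 (adjusted p = 0.556 by limma). Dnajb1 was at 4.10, 5.09, 4.64, 4.46 and 5.29 FPKM with vehicle, 4.42, 4.89, 5.79, 6.67 and 5.08 with the conjugate and 3.92, 3.87, 3.90, 4.11 and 4.06 in the knockout. The 5 knockout libraries of Dnajb1 lay within 3.87 to 4.11 FPKM, touching the lowest vehicle library, and differed by -0.20 ± 0.09 (adjusted p = 0.192 by limma).

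Hspa8 gave 323, 374, 348, 309.5 and 311 FPKM with vehicle, 367, 337, 490.1, 361 and 359 with the conjugate and 301, 276, 307, 275 and 325 in the knockout, and conjugate replicate 3 stood above all others. Hsph1 gave 12.3, 15.8, 9.94, 7.15 and 9.66 FPKM with vehicle, 9.47, 8.62, 12.6, 13.05 and 11.1 with the conjugate and 10.8, 8.75, 13.1, 9.82 and 13.02 in the knockout. Hsp90aa1 gave 65.1, 83.6, 67.7, 42.6 and 41.9 FPKM with vehicle, 49.3, 42.2, 61.3, 59.1 and 52.4 with the conjugate and 45.6, 45.9, 64.4, 50.7 and 67.2 in the knockout. Both HSP110 and HSP90 transcripts thus overlapped in all 3 groups, with vehicle replicate 2 the highest of each. Hspa1b gave 0.464, 0.486, 0.910, 0.617 and 1.44 FPKM with vehicle, 0.267, 0.541, 0.920, 2.30 and 1.60 with the conjugate and 0.725, 0.247, 0.520, 0.486 and 0.622 in the knockout, under the level needed for a test. Its 3 highest values were the 3 libraries of the higher number series. Dnaja1, Hspd1 and Ahsa2 differed from vehicle by -0.23 (Dnaja1, knockout) to 0.17 (Ahsa2, conjugate).

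Among the other chaperone genes of GiprSyn-/- liver, 0 of 31 HSP90 and HSP70 machinery genes rose and 2 fell, where 10.4% of all genes were called. Bag3, an exchange factor that couples HSP70 to small heat shock proteins, fell by 0.44 on the log2 scale (adjusted p = 0.0472 by limma, call kept in 7 of 22 alternatives), and Hspa14 by 0.26 (kept in 11 of 22). The small heat shock protein gene Hspb8, whose product works with BAG3, was at 82.4 ± 10.3 FPKM (SD, n = 5) with vehicle and 60.9 ± 10.9 in the knockout, and fell by 0.44 (kept in 8 of 22). With the conjugate it was at 57.8 ± 9.44 FPKM and fell by 0.51 (adjusted p = 0.0442 by limma, kept in 9 of 22). Hsbp1, whose product binds HSF1, fell in the knockout by 0.33 (kept in 12 of 22). Xbp1 rose from 77.2 ± 11.7 to 119.9 ± 21.8 FPKM, by 0.62 ± 0.15 (adjusted p = 0.0131 by limma, kept in 22 of 22), and 15 of 17 genes of the reticulum list lay above 0, beside 26.2% of all genes. Without the libraries of the higher number series, the calls of Hspb8 (adjusted p = 0.0779 in the knockout and 0.0960 with the conjugate, by limma), Hspa14 (0.0516) and Hsbp1 (0.0521) were lost. With depth as a term those of Bag3 (0.0562), Hspa14 (0.0511) and Hspb8 (0.0665 and 0.0691) were lost. Acinar pancreas scores differed widely within each group of this table (0.602 to 8.97 with vehicle and 0.786 to 8.42 in the knockout). With that score as a term Xbp1 differed by 0.58 (adjusted p = 0.0279 by limma), and the part of these scores in the list was not tested otherwise. The knockout calls of Bag3 (0.114) and Hspb8 (0.0943) were lost with it, and those of Hspa14 (0.0268) and Hsbp1 (0.0462) were kept. With the immediate early score as a term, Bag3 (0.252), Hspa14 (0.124), Hspb8 (0.201 in the knockout and 0.0597 with the conjugate) and Hsbp1 (0.161) lost their calls. Xbp1 kept its own (0.0200).

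**Figure D3:**
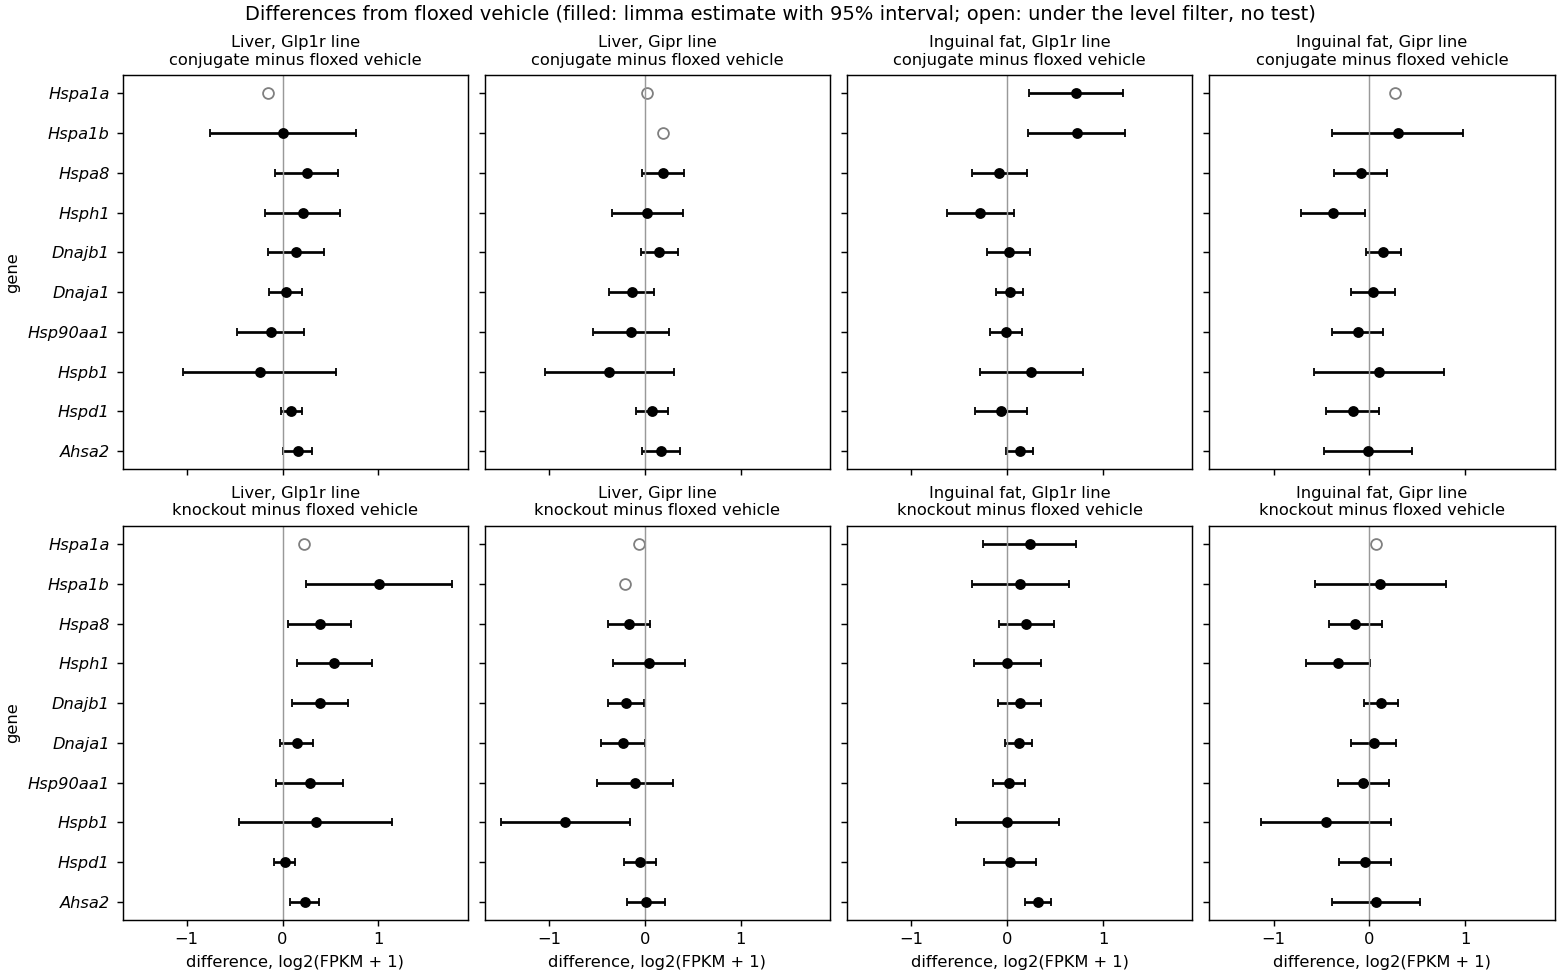
Difference of each gene from floxed vehicle, on the log2(FPKM + 1) scale, for the conjugate (upper row) and the knockout (lower row) in each tissue and line. Filled points are limma estimates with unadjusted 95% intervals, and open circles are genes under the level filter, which have no test. Several intervals exclude 0, and no chaperone is called after adjustment over all genes.

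In Glp1rfl/fl inguinal fat the inducible HSP70 genes were the chaperones with the largest estimates after the conjugate. Hspa1a was at 1.11, 1.18, 0.747, 1.48 and 1.32 FPKM with vehicle and 2.25, 1.21, 2.87, 2.06 and 5.51 FPKM after the conjugate. Hspa1b was at 2.03, 1.90, 1.55, 2.52 and 1.96 FPKM with vehicle and 2.85, 2.13, 4.47, 3.43 and 8.84 FPKM after the conjugate. In both genes conjugate replicate 2 lay within the vehicle range and replicate 5 stood far above the rest. The differences were 0.72 ± 0.23 for Hspa1a (adjusted p = 0.0992 by limma) and 0.72 ± 0.24 for Hspa1b (adjusted p = 0.108 by limma), and neither passed. Without replicate 5 they were 0.50 and 0.47. Without replicate 2 they were 0.89 and 0.89 and both passed (adjusted p = 0.0275 and 0.0378 by limma).

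Hsph1, encoding the exchange factor HSP110, had an estimate of the opposite sign. It was at 14.4, 13.3, 14.1, 15.9 and 13.3 FPKM with vehicle and 10.1, 9.20, 9.75, 11.5 and 19.1 FPKM after the conjugate, where replicates 1 to 4 lay below every vehicle library and replicate 5 above every one. The difference was -0.28 ± 0.16 (adjusted p = 0.407 by limma) with all libraries and -0.45 without replicate 5, when it passed (adjusted p = 0.0316 by limma). Dnajb1 was at 9.74, 15.6, 10.3, 10.3 and 11.8 FPKM with vehicle and 11.3, 11.3, 12.4, 11.6 and 11.2 FPKM after the conjugate (0.02 ± 0.10). Hsp90aa1 was at 88.5, 79.4, 93.3, 88.8 and 91.3 FPKM with vehicle and 79.7, 84.4, 84.6, 87.8 and 103 FPKM after the conjugate (-0.01 ± 0.078). Hspa8 was at 472, 566, 477, 580.5 and 552 FPKM with vehicle and 449, 404, 482, 523 and 676 FPKM after the conjugate (-0.08 ± 0.13). Replicate 5 was the highest conjugate library for Hsp90aa1 and Hspa8, and these groups overlapped. Dnaja1, Hspb1, Hspd1 and Ahsa2 differed by -0.06 to 0.25. By limma, 0 of 10 were called, beside 3.39% of 12686 genes. An unadjusted p under 0.05 was found for 2 (Hspa1a and Hspa1b) and for 2276 of all genes. The median of the 10 was 0.02, beside 0.05 for all genes, and 6 of 10 lay above 0, as did 59.9% of all genes.

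Conjugate replicate 5 of this fat was also the highest library for macrophage and immediate early genes. Its macrophage score was 5.64, against 3.26 to 4.25 in the other 14 libraries (4 genes, of which the Kupffer cell gene Clec4f was listed at 0 in 9 of the 15), and its score over the immediate early genes was 3.96, against 2.59 to 3.71. Fos, one of these rapidly induced genes, was at 34.4 FPKM there and at 4.37, 4.63, 3.45, 7.29 and 8.82 FPKM with vehicle. Over the whole group, 2 of 13 immediate early genes rose, where 3.39% of all genes were called: Dusp1, a phosphatase gene, by 0.87 ± 0.19 (adjusted p = 0.0274 by limma) and Jun by 0.68 ± 0.15 (adjusted p = 0.0289 by limma). Their part in the Hspa1a and Hspa1b values was not tested beyond the refits given here. Of the chaperone lists, Xbp1 alone was called, rising by 0.46 ± 0.10 (kept in 11 of 21 alternatives and lost with depth as a term, adjusted p = 0.0789 by limma). Hsf1 differed by 0.30 ± 0.20 (adjusted p = 0.510 by limma).

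In fat of Glp1rWnt1-/- mice, Ahsa2 was the one chaperone whose groups did not overlap. It was at 12.6, 11.5, 11.5, 12.7 and 11.8 FPKM in Glp1rfl/fl mice given vehicle and at 14.1, 15.6, 15.2, 16.04 and 15.5 FPKM in the knockout, while the conjugate group overlapped both (13.8, 12.1, 14.2, 13.8 and 12.2 FPKM). Groups did not overlap for 1.06% of the 12686 genes tested. The difference was 0.32 ± 0.064 (adjusted p = 0.931 by limma). By limma, 0 of 10 chaperones and 0% of all genes were called, with 1 chaperone (Ahsa2) and 593 genes at an unadjusted p under 0.05. All 10 estimates were above 0, with a median of 0.13 beside 0.04 for all genes, of which 61.6% were above 0. Hspa8 was at 539, 619, 544, 668 and 675 FPKM in the knockout (0.20 ± 0.13), Hsph1 at 11.8, 16.6, 11.96, 14.6 and 16.9 (0.0012 ± 0.16) and Hspa1b at 1.69, 2.54, 2.05, 2.19 and 3.06 (0.14 ± 0.24). Hspa1a differed by 0.23 ± 0.23, and Dnajb1, Dnaja1, Hsp90aa1, Hspb1 and Hspd1 by 0.0022 to 0.13. No gene of the chaperone or heat shock factor lists was called.

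Hspb1, the small heat shock protein HSP27, was low in Glp1r-line fat libraries that were rich in B cell transcripts. In Glp1r-line fat it was at 122, 46.4, 75.3, 93.8 and 85.2 FPKM with vehicle, 109, 81.1, 99.7, 110.2 and 85.8 with the conjugate and 50.1, 121, 64.01, 95.1 and 93.2 in the knockout. Its 3 lowest libraries, vehicle replicate 2 and knockout replicates 1 and 3, were the 3 with a B cell score above 5 (6.63, 5.84 and 5.80, against 0.432 to 1.21 elsewhere). Without these libraries its differences from vehicle were 0.06 with the conjugate and 0.14 in the knockout, and 0.25 and 0.0022 with them. In Gipr-line fat Hspb1 was at 74.7, 34.8, 68.9, 48.2 and 72.7 FPKM with vehicle, 36.7, 69.7, 70.3, 48.3 and 102 with the conjugate and 22.7, 52.1, 70.8, 31.8 and 47.1 in the knockout, and the lowest library, knockout replicate 1, had the highest B cell score of its table (6.39). Its knockout difference there was -0.45 ± 0.32, and -0.23 without the 3 libraries with a score above 5.

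In Gipr-line fat the gene of the regulator HSF1 rose. Hsf1 was at 10.1, 7.85, 9.11, 7.53 and 9.15 FPKM with vehicle and 16.97, 12.8, 13.9, 12.1 and 15.9 FPKM after the conjugate, with no overlap, as for 11.6% of all genes. The rise was 0.65 ± 0.14 (adjusted p = 0.0174 by limma), and it was called in 21 of 22 alternatives, the exception being the fit with the immediate early score as a term (adjusted p = 0.0613 by limma). In GiprSyn-/- fat Hsf1 was at 11.4, 13, 14.2, 9.03 and 17.05 FPKM and rose by 0.49 ± 0.14 (adjusted p = 0.0388 by limma), a call kept in 7 of 22 alternatives and lost when the 3 libraries richest in B cell transcripts were left out (adjusted p = 0.121 by limma), without the higher number series (adjusted p = 0.0958) or with depth as a term (adjusted p = 0.0562). B cell scores were 1.07 to 4.70 with vehicle, 1.87 to 6.17 with the conjugate and 3.58 to 6.39 in the knockout. In Glp1r-line fat, the 3 highest Hsf1 values (16.7, 15 and 13.5 FPKM) were in the 3 libraries rich in B cell transcripts.

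Of the 9 chaperones tested in Gipr-line fat, 0 were called by limma after the conjugate, beside 7.02% of 13604 genes. At an unadjusted p under 0.05 were 1 chaperone (Hsph1) and 3274 of all genes. In the knockout 0 were called, beside 12.3%, and with 9 genes neither count sets them apart from these shares. At an unadjusted p under 0.05 in the knockout were 0 chaperones and 4236 of all genes. Hsph1 was at 10.9, 15.3, 8.58, 14.2 and 7.86 FPKM with vehicle, 8.21, 8.38, 7.95, 7.91 and 8.64 with the conjugate and 11.1, 7.27, 8.67, 8.44 and 7.93 in the knockout. The 3 highest vehicle libraries lay above every conjugate library. The differences were -0.38 ± 0.16 (adjusted p = 0.150 by limma) and -0.32 ± 0.16 (adjusted p = 0.171 by limma). Medians over the 10 were 0.01 with the conjugate and -0.0001 in the knockout, below the medians of all genes, 0.11 and 0.09. With the conjugate 5 of 10 lay above 0 (66.9% of all genes), and in the knockout 5 of 10 (61.3%).

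The remaining chaperones of Gipr-line fat were not called, and their groups overlapped. Hspa8 gave 469, 572, 404, 565 and 368 FPKM with vehicle, 433, 425, 413, 457 and 475 with the conjugate and 469.7, 359, 446, 446 and 400.4 in the knockout. Dnajb1 gave 11.2, 10.5, 10.9, 12.2 and 11.5 FPKM with vehicle, 11.8, 11.4, 12.4, 12.6 and 14.7 with the conjugate and 13.1, 10.9, 11.6, 12.7 and 13.5 in the knockout. Hsp90aa1 gave 81.5, 112, 77.4, 100.03 and 76.4 FPKM with vehicle, 77.4, 79.97, 76, 87.4 and 85.6 with the conjugate and 93.97, 76.7, 78.9, 104 and 72.99 in the knockout. Every one of these 3 genes had libraries of one group within the range of another. Hspa1b gave 1.60, 0.497, 1.33, 0.534 and 1.48 FPKM with vehicle, 0.732, 1.32, 1.10, 1.10 and 4.48 with the conjugate and 0.395, 1.17, 1.14, 0.892 and 3.17 in the knockout. Hspa1a gave 0.929, 0.338, 0.728, 0.571 and 0.741 FPKM with vehicle, 0.528, 0.864, 0.919, 0.535 and 2.68 with the conjugate and 0.287, 0.779, 0.725, 0.377 and 1.81 in the knockout. For both inducible HSP70 genes, replicate 5 of the conjugate group and replicate 5 of the knockout group stood above all others, and both are of the higher number series. Without them the differences of Hspa1b were 0.01 and -0.12, against 0.30 and 0.11 with them. Dnaja1, Hspd1, Ahsa2 and Hspb1 differed by -0.45 (Hspb1, knockout) to 0.10 (Hspb1, conjugate).

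A few genes of the other chaperone lists were called in this fat. With the conjugate, 2 of 32 HSP90 and HSP70 machinery genes rose and 0 fell, where 7.02% of all genes were called. Tomm34, which binds both chaperones on the way to mitochondria, rose by 0.62 ± 0.12 (adjusted p = 0.0111 by limma, kept in 22 of 22 alternatives), and the J-domain gene Dnajb2 by 0.58 ± 0.15 (kept in 12 of 22). In the knockout 1 of 32 rose, where 12.3% of all genes were called, Tomm34 by 0.50 ± 0.12 (kept in 19 of 22). Cirbp was at 30.5 ± 5.58 FPKM (SD, n = 5) with vehicle and rose to 55.1 ± 12.9 with the conjugate (adjusted p = 0.0354 by limma, kept in 12 of 22), and was at 50.95 ± 20.6 in the knockout (adjusted p = 0.0571 by limma). In Glp1r-line fat the 3 highest Cirbp values (75.5, 58.1 and 47.4 FPKM) were in the 3 libraries rich in B cell transcripts, and in Gipr-line fat the conjugate call was kept without the 3 such libraries (adjusted p = 0.0186 by limma). Of 17 endoplasmic reticulum genes, Xbp1 rose with the conjugate by 0.46 ± 0.13 (kept in 11 of 22) and in the knockout by 0.52 ± 0.13 (kept in 20 of 22). In the knockout the protein disulfide isomerase gene Pdia4 rose by 0.47 ± 0.11 (kept in 20 of 22) and Creld2 by 0.37 ± 0.11 (kept in 6 of 22). When the 3 libraries richest in B cell transcripts were dropped, the knockout calls of Tomm34 (adjusted p = 0.0832 by limma), Pdia4 (0.0913) and Creld2 (0.222) were lost. Without the 2 libraries of the higher number series, those of Dnajb2 (0.0751) and Xbp1 (0.0942) with the conjugate and of Tomm34 (0.05001) and Creld2 (0.0920) in the knockout were lost. None of 16 chaperonins and mitochondrial chaperones and none of 5 small heat shock proteins tested was called in either comparison.

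**Figure D4:**
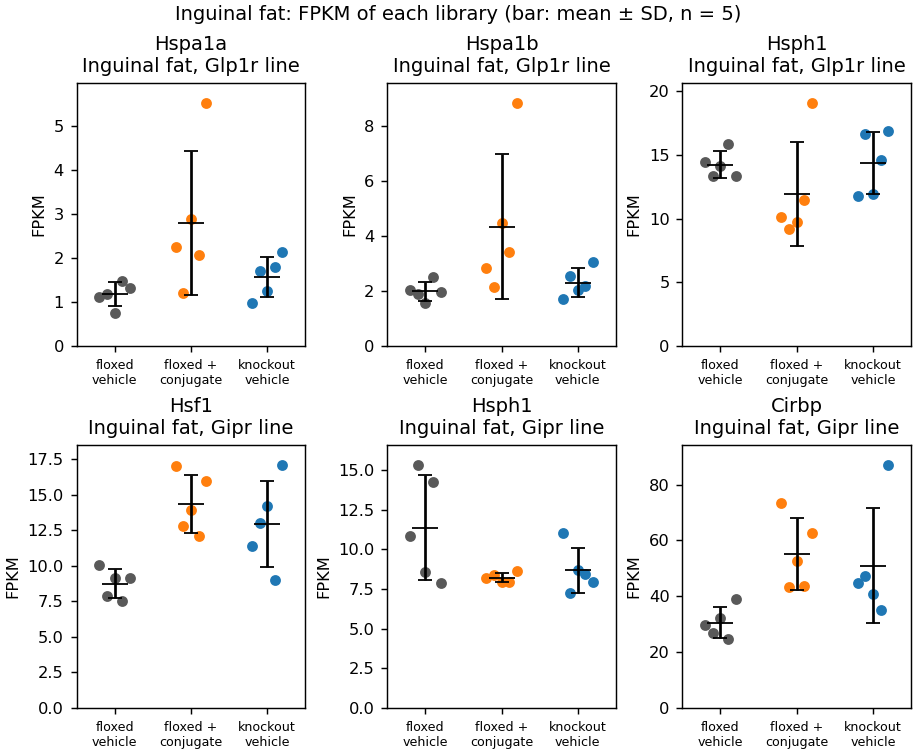
FPKM in inguinal fat, one point per library with replicates 1 to 5 from left to right and bars for mean ± SD (n = 5), for Hspa1a, Hspa1b and Hsph1 in the Glp1r line (upper row) and Hsf1, Hsph1 and Cirbp in the Gipr line (lower row). The rightmost orange point of the upper panels is conjugate replicate 5, and the 5 orange Hsf1 points all lie above the 5 grey ones.

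Genes that respond within minutes to handling and stimulation, and genes of the circadian clock, were followed beside the chaperones. Over all genes, 10.4% were called with the conjugate in Glp1r-line liver and 3.39% in Glp1r-line fat, and 0% in either Glp1rWnt1-/- comparison. In the Gipr line 4.34% were called with the conjugate and 10.4% in the knockout in liver, and 7.02% and 12.3% in fat. The counts of these short lists stand against these shares. Single genes of these 2 lists were not refitted under the alternatives used for the chaperone lists. Of the immediate early genes tested, 1 of 9 rose and 4 fell with the conjugate in Glp1r-line liver, where Jun, a subunit of AP-1, fell by 1.24 on the log2 scale, Egr1 by 0.86 and Atf3 by 0.82. Depth and treatment cannot be told apart in that comparison, and 0 of all genes were called there with depth as a term. In Gipr-line liver 0 of 11 passed with the conjugate, and in the knockout Jun alone passed and fell by 1.20. In Gipr-line fat Zfp36 alone of 14 rose with the conjugate, by 0.61 ± 0.15. In the knockout of that fat 1 rose and 3 fell, Atf3 by 1.59, Fos by 1.08 and Egr2 by 0.62. Among 15 clock genes in the same tissue, 3 rose with the conjugate, Hlf by 0.62 ± 0.15, Per3 by 0.55 ± 0.15 and Tef by 0.49 ± 0.14. In the knockout 4 rose, among them Per3 by 0.52 ± 0.15 and Hlf by 0.50 ± 0.15, and Nfil3 fell by 0.53. No clock gene was called in the other 6 comparisons, and no immediate early gene in either comparison of a Glp1rWnt1-/- group. The time of tissue collection is not given in the labels, and the part of these genes' changes in the chaperone values was not tested beyond a term for the immediate early score.

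Whether the conjugate acted differently on the chaperones in the 2 lines was tested directly. In liver, the conjugate effect in the Gipr line minus that in the Glp1r line ran from -0.18 to 0.19 over the 9 chaperones tested, and limma called 0 of them and 0% of 11419 genes (smallest adjusted p = 0.782, 657 genes at an unadjusted p under 0.05). In fat it ran from -0.45 to 0.13 over 10 chaperones, with 0 called and 0% of 13749 genes (smallest adjusted p = 0.900, 545 at an unadjusted p under 0.05). No chaperone had an unadjusted p under 0.05 in either test. The fat differences of the inducible HSP70 genes were -0.45 ± 0.34 for Hspa1a and -0.43 ± 0.41 for Hspa1b, so the larger estimates in the Glp1r line were not shown to differ from those in the Gipr line.

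In the Gipr line, Hspa1a and Hspa1b had no overlap between libraries of the lower and the higher numbers. In liver, Hspa1b was at 1.44 to 2.30 FPKM in the 3 libraries of the higher number series, 1 with vehicle and 2 with the conjugate, and at 0.247 to 0.920 in the other 12, and Hspa1a at 0.183 to 0.223 and 0.0240 to 0.0892. In fat, Hspa1b was at 3.17 to 4.48 FPKM in the 2 libraries of that series, 1 with the conjugate and 1 knockout, and at 0.395 to 1.60 in the other 13. Hspa1a was at 1.81 to 2.68 and 0.287 to 0.929 FPKM, and Dnajb1 at 13.5 to 14.7 and 10.5 to 13.1. The other 8 genes in liver and 7 in fat had overlapping ranges. Over all genes tested, the higher series lay wholly above the rest for 8.44% in liver and 6.71% in fat. Hspa1a in both tissues and Hspa1b in liver were under the level filter, so they are not among the genes of these shares. The labels give the numbers as library names and do not say what sets the series apart. Their estimated depth was 56.4 to 64.2 M fragments in fat, against 30.04 to 39.4 in the other 13 libraries, and 51.04 to 56.97 in liver, against 35.3 to 57.5 in the other 12. These libraries were set beside the rest after the data were seen, and their part in the group values was checked by leaving them out, which moved the conjugate difference of Hspa1b in Gipr-line liver from 0.19 to -0.05.

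**Figure D5:**
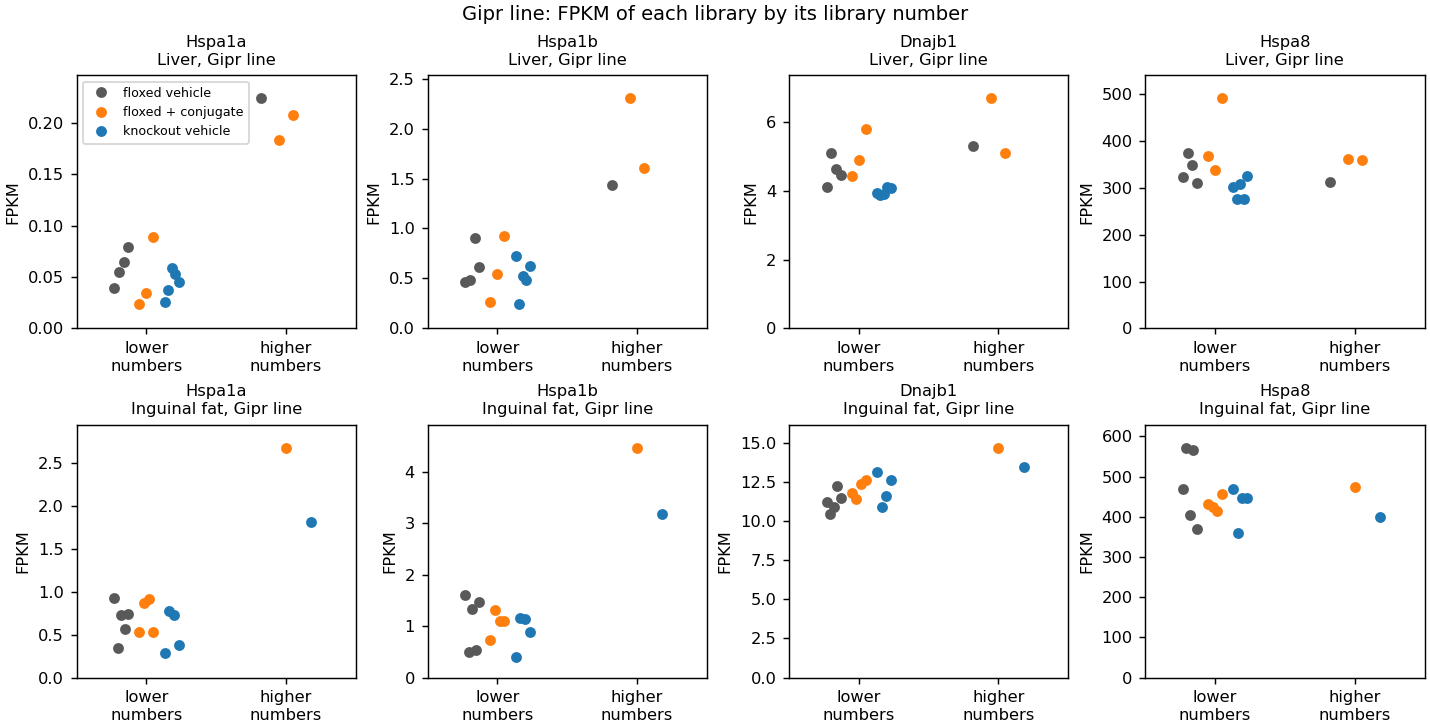
FPKM of Hspa1a, Hspa1b, Dnajb1 and Hspa8 in Gipr-line liver (upper row) and fat (lower row), one point per library, split by whether the library number belongs to the lower or the higher series and coloured by group. For Hspa1a and Hspa1b every point of the higher series lies above every point of the lower one, while Hspa8 overlaps.

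Genes whose variation within groups was most like that of the chaperones were ranked by their Pearson r with the mean of the scaled chaperones, over 15 libraries in each table, averaged over the 4 tables. Among 9661 other genes tested in all tables, the 8 highest were P4ha1 (0.713), a collagen prolyl hydroxylase gene, Cacybp (0.693), Snx3 (0.686), Ube2f (0.626), Gadd45a (0.623), Pdia3 (0.622), Selenok (0.613) and Pcp4l1 (0.603). The median over all these genes was 0.0359. Cacybp, which encodes a partner of the ubiquitin ligase machinery, had r = 0.917 and 0.913 in the livers but 0.175 in Glp1r-line fat and 0.766 in Gipr-line fat. Cacybp was also on the HSP90 and HSP70 list, and Pdia3 on that of endoplasmic reticulum chaperones. With median-of-ratios scaling 3 of the 8 stayed among the 8 highest. The libraries are shared by all these genes, so the values describe likeness in these samples.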

How the data were processed

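Whole-tissue RNA of liver and inguinal white adipose tissue was sequenced as stranded poly(A) libraries, per the labels' protocols. The deposited values are FPKM per gene, which the authors made with RSEM, per the submitters' processing notes. The aligner, genome build, annotation, RSEM version and strand setting were not given in the sources used here. Groups came from the sample labels, columns were matched by library name, and 0 sample columns went unused. The members and lists were chosen with earlier results of these data known.

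Each of the 4 tables (15 libraries, 3 groups of 5) was fitted on its own with limma 3.58.1 in R 4.3.3 on log2(FPKM + 1), over genes with at least 1 FPKM in at least 5 libraries. A trended prior variance was used, and Benjamini-Hochberg adjustment ran over all genes tested, with calls at an adjusted p under 0.05. A fold change is on the log2(FPKM + 1) scale, which understates changes of low genes such as Hspa1a. All 3 groups share 1 estimate of the spread, and errors after ± are SE for differences and SD for levels. The p-values set a difference between groups against the spread between libraries within groups. The difference in conjugate effect between lines was fitted over both tables of a tissue. Depth was estimated from the low FPKM of genes with 1 transcript of 1500 to 6000 bases in GENCODE M21, with a tolerance of 5%, and its precision was not measured. Outliers were sought by Dixon's ratio. The fits were tested on simulated data. Every chaperone is described. From each list (HSP90 and HSP70 machinery and co-chaperones, small heat shock proteins, chaperonins and mitochondrial chaperones, endoplasmic reticulum chaperones, heat shock factors, cold-inducible genes, immediate early genes, clock genes), up to 3 called genes with the largest changes are named in a comparison, and Hsf1, Hsp90ab1, Hspa5, Cirbp and Rbm3 may be given whatever their values. Alternatives were a pseudocount of 0.1, no filter and a filter at 5 FPKM, median-of-ratios and common-sum scaling, array weights, a replicate block, fits of only the groups compared, terms for depth, acinar pancreas and immediate early scores, and leaving out libraries singly, those of the higher number series or those rich in B cell transcripts (score above 5). The immediate early term, the summed Hspa1a and Hspa1b rows and the side-by-side values of the number series were added after seeing the data. The B cell score was taken over 6 genes: 1 further gene of that list is not reported here and was left out after the data were seen.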

Additional observations from a re-analysis of the deposited data

Results flagged for a closer look

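In 8 of the 120 groups of 5 libraries examined (10 genes in 12 groups), 1 library lay far from the other 4, by a ratio of its gap to the group's range above the 95% critical value of 0.71. Chance gives about 1 in 20 such groups. In Glp1r-line liver, Hsp90aa1 was at 46.6 FPKM in vehicle replicate 1 and 63.5 to 69.9 FPKM in the other 4 libraries. In Gipr-line liver, Hspa1a was at 0.223 FPKM in vehicle replicate 5 and 0.0390 to 0.0796 FPKM in the other 4 libraries, all under the level filter. Hspa8 was at 490.1 FPKM in conjugate replicate 3 and 337 to 367 FPKM in the other 4 libraries, and Dnaja1 was at 48.99 FPKM in knockout replicate 2 and 60.4 to 64.7 FPKM in the other 4 libraries. In Glp1r-line fat, Hsph1 was at 19.1 FPKM in conjugate replicate 5 and 9.20 to 11.5 FPKM in the other 4 libraries, and this library also had the highest macrophage score of its table (5.64). In Gipr-line fat, Hspa1a was at 2.68 FPKM in conjugate replicate 5 and 0.528 to 0.919 FPKM in the other 4 libraries, and Hspa1b was at 4.48 FPKM in conjugate replicate 5 and 0.732 to 1.32 FPKM in the other 4 libraries. In the knockout group of that fat, Hspa1b was at 3.17 FPKM in knockout replicate 5 and 0.395 to 1.17 FPKM in the other 4 libraries. The Gipr-line libraries with outlying Hspa1a or Hspa1b all carry numbers of the higher series.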

How the results depend on the processing

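The number of chaperones called was 0 in 226 of 234 alternatives and above 0 in 8. In Glp1r-line liver, 1 chaperone (Ahsa2, 0.30, adjusted p = 0.0130 by limma) and 776 of all genes were called with the conjugate when the acinar pancreas score was a term. In this liver the score rested on Cela1 (12.5 to 37.1 FPKM), since no other gene of its list was above 0.15 FPKM. In Gipr-line knockout liver 1 was called with common-sum scaling (Dnaja1, -0.34, adjusted p = 0.0456 by limma), 1 with array weights (Hspb1, -0.73, 0.0231) and 1 with only the groups compared (Hspb1, -0.83, 0.0151). These fits called 1967, 3333 and 1574 of all genes, where the main fit tested 11201. In Glp1r-line fat 4 were called with array weights after the conjugate (Hspa1a 0.52, Hspa1b 0.50, Hsph1 -0.44, Ahsa2 0.15) and 2 in the knockout (Dnaja1 0.17, Ahsa2 0.32). Array weights called 5556 of 12686 genes after the conjugate there and 732 in the knockout, so nothing about the chaperones is read from these counts. Leaving out 1 library gave 0 to 2 after the conjugate in that fat, with 693 of all genes called without conjugate replicate 2 and 749 without conjugate replicate 5. The median of the 10 in Glp1r-line liver with the conjugate moved to -0.52 with depth as a term, 0.29 with the pancreas term and 0.33 with the immediate early term, which was chosen after seeing the data. The other 169 of 172 alternative medians moved by less than the spread between libraries. The called difference of Hsf4 in Glp1r-line liver turned to -0.12 with depth as a term. The cause of these changes was not tested. Leaving out 1 library, medians ran from 0.02 to 0.12 with the conjugate and 0.19 to 0.44 in the knockout of Glp1r-line liver, 0.0047 to 0.12 and -0.20 to -0.10 in Gipr-line liver, 0.01 to 0.04 and 0.09 to 0.16 in Glp1r-line fat, and -0.07 to 0.06 and -0.09 to 0.01 in Gipr-line fat.

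Counts of all genes called ran over the alternatives from 0 to 1676 with the conjugate and 0 to 81 in the knockout of Glp1r-line liver (1126 and 0 as reported). They ran from 149 to 1333 and 695 to 3333 in Gipr-line liver (486 and 1160), 58 to 5556 and 0 to 732 in Glp1r-line fat (430 and 0) and 320 to 3618 and 712 to 3723 in Gipr-line fat (955 and 1670). With a replicate block, 0 chaperones were called in any comparison and the median of the 10 in Glp1r-line knockout liver stayed at 0.31. No pairing by replicate number was seen, though 5 pairs per comparison are too few to exclude it. After each group's mean was subtracted, same-numbered libraries of compared groups correlated at -0.843 to 0.571. At most 2 of 5 correlated best with their own number. Hspa1a in liver, under 1 FPKM in every library, did not pass the filter on low values.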
